A study of Mus musculus with 16 samples.

Results

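The 6 genes described here make, import and use creatine: Gamt, Gatm, Slc6a8, Ckm, Ckmt2 and Ckb. They were picked by name from the 24354 genes of the deposited tables, and all 6 were found in both tables. The choice was made with earlier results of these data known, and the low resting level of Gamt in the HDAC3 knockout was one of them. That difference is therefore given as a description without a test. RNA-seq was done on quadriceps of male C57BL/6 mice aged 4 months, in 4 groups of 3 libraries: HDAC3-KO at rest, WT at rest, HDAC3-KO after treadmill running and WT after treadmill running. HDAC3 is a histone deacetylase of the NCoR and SMRT corepressor complexes, and the series text calls the knockout muscle HDAC3-depleted; the promoter behind the deletion is not given in the sources used here. The runners had 3 bouts of 1 h at 10 m/min with 1 h of rest between bouts, and their muscle was collected 2 h after the last bout. Nothing in the labels ties the libraries to separate animals, so p-values measure the spread between these samples, which may be technical.

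Creatine is made in 2 steps. Gatm moves the amidino group of arginine to glycine, which gives guanidinoacetate and ornithine, and Gamt methylates it to creatine with S-adenosylmethionine as donor. Most creatine of the body is made outside skeletal muscle, which takes it up through the sodium-coupled transporter Slc6a8. In the fibre, creatine kinases pass phosphate between ATP and creatine, with Ckmt2 at the inner mitochondrial membrane, Ckm in the cytosol and at the M-band, and Ckb as the cytosolic form typical of brain and smooth muscle. Values are FPKM, fragments per kilobase of transcript scaled to library size, so levels of different genes can be set beside each other within a library. Read depth is unknown, and the number of libraries limits the precision.

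The promoters of the gene that differed between the genotypes and of the most and least abundant kinases are shown for orientation, since they serve 1 pathway at very different levels. Each run gives the 250 bases before the transcription start, 5′ to 3′ on the gene's strand, from RefSeq annotation of GRCm38.p6. The Gamt window is chr10:80261013-80261262 on the minus strand, the Ckm window chr7:19410844-19411093 on the plus strand and the Ckb window chr12:111672339-111672588 on the minus strand.
Gamt: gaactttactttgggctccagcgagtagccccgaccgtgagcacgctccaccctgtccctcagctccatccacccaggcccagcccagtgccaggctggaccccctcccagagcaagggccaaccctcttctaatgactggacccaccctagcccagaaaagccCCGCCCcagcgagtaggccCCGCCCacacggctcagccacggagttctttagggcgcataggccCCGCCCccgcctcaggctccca
Ckm: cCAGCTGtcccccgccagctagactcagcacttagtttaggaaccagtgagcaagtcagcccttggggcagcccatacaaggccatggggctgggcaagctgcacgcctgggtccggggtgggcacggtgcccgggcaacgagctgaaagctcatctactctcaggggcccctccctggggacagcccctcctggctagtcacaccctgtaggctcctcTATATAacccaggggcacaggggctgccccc
Ckb: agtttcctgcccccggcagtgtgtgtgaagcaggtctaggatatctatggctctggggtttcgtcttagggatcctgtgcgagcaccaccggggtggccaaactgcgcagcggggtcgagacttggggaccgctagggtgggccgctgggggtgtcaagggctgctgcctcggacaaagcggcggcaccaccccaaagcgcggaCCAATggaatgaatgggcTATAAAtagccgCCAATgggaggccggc
Capitals mark GGGCGG or its reverse complement in Gamt, CANNTG and TATATA in Ckm, and TATAAA and CCAAT in Ckb. Both strands were searched, and the marked matches do not overlap. AGGTCA was searched too. Gamt held 3 GGGCGG matches and none to the other motifs. Ckm held 1 CANNTG and 1 TATATA match, the second beginning 31 bases before the start. Ckb held 1 TATAAA and 2 CCAAT matches. Of 32851 promoter windows of the same length, 32.7% held GGGCGG, 66.2% CANNTG, 5.25% TATATA, 12.4% TATAAA, 33.8% CCAAT and 14% AGGTCA. Of the 6 genes, 5 were found in the promoter table. Gatm held 1 AGGTCA, 1 CANNTG and 2 CCAAT matches. Ckmt2 held 4 matches of CANNTG, 2 of CCAAT and 1 of GGGCGG. The FPKM tables hold no measurement on these promoters.

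Hdac3 transcript, which checks the labels, lay between 4.13 and 8.16 FPKM in the 6 KO libraries and between 23.7 and 33.3 FPKM in the 6 WT libraries, and it passed limma in each of the 12 fits with 1 library left out. The libraries had summed levels of 454359 to 522584 FPKM, and 10123 to 10544 genes reached 1 FPKM. Skeletal muscle markers were abundant throughout, with 6 of 6 tested and summed levels of 22066 to 28106 FPKM in KO and 22776 to 26703 FPKM in WT at rest, and of 22996 to 26230 FPKM in KO and 25081 to 34078 FPKM in WT after running. In each condition 1 of the 6, the intermediate filament gene Des, was called higher: it averaged 960 ± 119.5 FPKM in KO and 499 ± 111 FPKM in WT at rest (SD, n = 3 each, limma adjusted p = 0.0271), and 1015 ± 87.3 FPKM in KO and 606 ± 91.8 FPKM in WT after running (limma adjusted p = 0.0379). Des passed 1 of 6 fits with 1 library left out at rest (0.118 without WT library 2) and 0 of 6 after running (0.0698 to 0.0982). Of 9204 genes tested at rest, 2.74% were called higher and 1.53% lower in KO by limma and the authors together; of 9037 after running the shares were 1.39% and 2.04%. limma alone called 4.72% at rest and 3.73% after running.

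Gamt, the enzyme that completes creatine, was the member that separated the genotypes. At rest it stood at 0.330 FPKM, 2.09 FPKM and a listed 0 in the 3 KO libraries, against 4.57, 5.50 and 6.40 FPKM in the WT libraries. A listed 0 can be a failed estimate: in the same library 36 genes that averaged at least 10 FPKM over the others were listed at 0, and 28 to 39 in each of the 12. As listed, every resting KO library lay below every WT library, as was the case for 12.4% of the genes tested at rest. In the muscle taken after running it stood at 1.69, 0.613 and 1.07 FPKM in the KO libraries, against 7.23, 8.81 and 11.8 FPKM in the WT libraries. Again the genotypes did not overlap, with KO below WT, which held for 13.7% of the genes tested after running; 5.84% of the 8854 genes tested in both tables had KO below WT without overlap in both.

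After running, the mean Gamt level in KO was 1.12 ± 0.541 FPKM, 12.1% of the 9.28 ± 2.32 FPKM in WT (SD, n = 3 each). On the log2(FPKM + 1) scale, which understates changes of low genes, Gamt fell by 2.28 (SE 0.23, limma adjusted p = 0.00477 over all 9037 genes), with a q of 0.00343 in the authors' deposited table. It passed limma in each of the 6 fits that left out 1 library, where the adjusted p was between 0.00784 and 0.0257. Of the 4 members the authors tested, Gamt was the only one called by both tests after running, beside 2.04% of all tested genes called lower. Its log2 difference was the 12th lowest among the 9037 genes fitted. The resting difference was -2.01 on the same scale (SE 0.39), the 14th lowest of 9204, and was -1.67 without the library listed at 0. Without the filter on low values, the limma adjusted p after running was 0.0937. Since members were chosen with earlier results known, the call after running is not independent evidence.

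**Figure D1:**
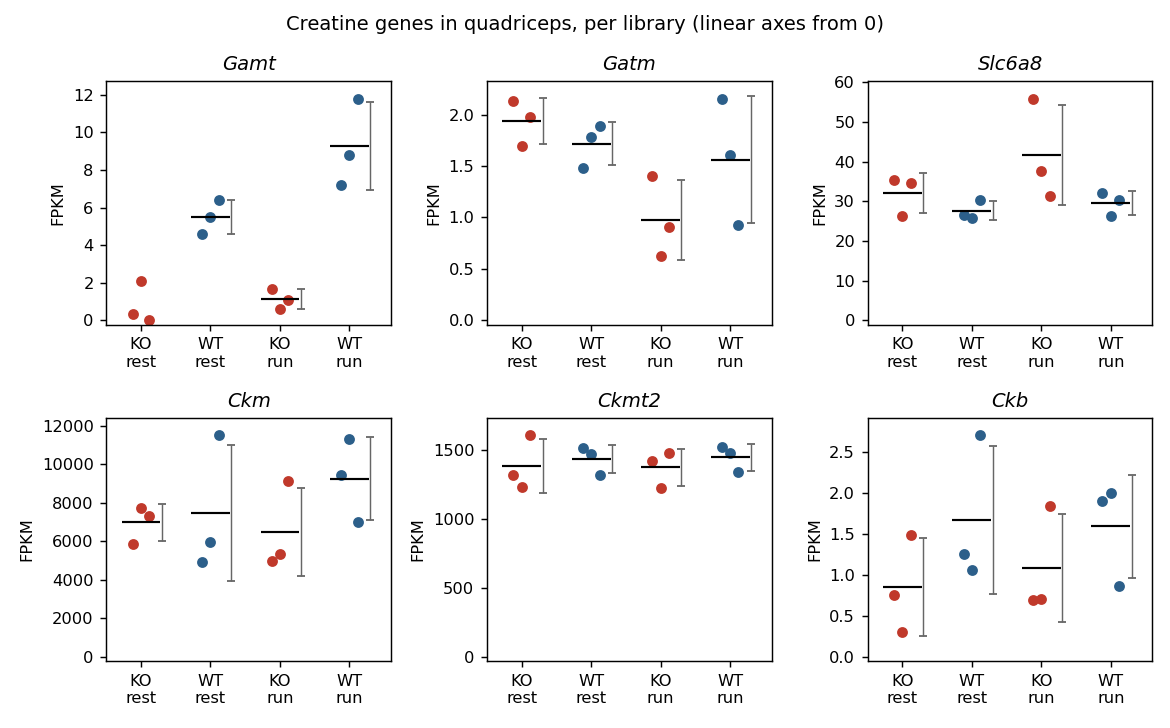
FPKM of each creatine gene (vertical axes, linear, from 0) in the 4 groups, KO and WT at rest and after running (run); points are the 3 libraries, horizontal lines the mean and whiskers the SD, both left out for Gamt in resting KO because 1 library is listed at 0. Gamt in KO stays at or under 2.09 FPKM, below the lowest WT library at 4.57 FPKM, whereas the genotypes overlap within each condition in the other panels.

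Fewer cells of a type and less RNA per cell cannot be told apart in bulk muscle. Among markers of other cells, 2 of 4 tested macrophage genes were called higher and 0 lower after running, beside 1.39% and 2.04% of all tested genes. Of these, Cd68 passed 2 of 6 fits with 1 library left out and Mrc1 5 of 6. Their highest limma adjusted p, 0.109 and 0.0548, came without WT library 2. The macrophage list (6 of 7 genes in the tables, none at 0 throughout) then summed to 52.7 to 79.6 FPKM in KO and 27.1 to 40.7 FPKM in WT. At rest it overlapped, at 35.4 to 63.5 FPKM in KO and 48.6 to 62.6 FPKM in WT, and its part in the Gamt values was not tested. The satellite cell list (Pax7, Myf5 and Calcr, none tested) summed to 0.451 to 0.576 FPKM in KO and 1.31 to 1.72 FPKM in WT at rest, and to 0.181 to 0.628 FPKM in KO and 0.585 to 0.681 FPKM in WT after running; its part was not tested either. After running, the Schwann cell and nerve list (3 of 6 genes tested, 0 called, none at 0 throughout) summed to 15.9 to 19.3 FPKM in KO and 20.2 to 23.4 FPKM in WT. In it Pmp22 averaged 10.4 FPKM in KO and 13.7 FPKM in WT, and Mbp 3.21 FPKM in KO and 2.84 FPKM in WT. The smooth muscle list (4 of 5 tested, 0 called, none at 0 throughout) then summed to 35.2 to 36.1 FPKM in KO and 36.2 to 48.1 FPKM in WT. Both lists overlapped at rest, at 23.7 to 25.5 FPKM in KO and 24.4 to 29.7 FPKM in WT for nerve and 35.9 to 46.6 FPKM in KO and 32.2 to 36.6 FPKM in WT for smooth muscle, and their part in the Gamt values was not tested. Sums of the endothelium, fibroblast, adipocyte and erythroid lists overlapped between the genotypes in each condition. The neutrophil list was high in single libraries, with 350.9 FPKM in KO library 3 after running and 541 FPKM in WT library 2 at rest. With 1 library left out, including these, the Gamt difference was -2.48 to -1.67 at rest and -2.47 to -2.10 after running.

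No gene overlaps Gamt in the RefSeq gene table of GRCm38.p6; the annotation behind the deposited values is not given, and read sharing was not measured. Its neighbours on chromosome 10 are Ndufs7, a complex I subunit, and Dazap1, an RNA-binding protein. After running, Ndufs7 averaged 152 FPKM in KO and 226 FPKM in WT (log2 difference -0.58, limma adjusted p = 0.336). Dazap1 averaged 6.46 FPKM in KO and 6.24 FPKM in WT (log2 difference 0.05, limma adjusted p = 0.893). Neither passed the test at rest, where the limma adjusted p was 0.413 for Ndufs7 and 0.89 for Dazap1.

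Gatm, the enzyme of the first step, was expressed at a low level in every group. At rest it stood at 2.13, 1.69 and 1.98 FPKM in KO and at 1.48, 1.78 and 1.89 FPKM in WT. The libraries taken after running had 1.40, 0.627 and 0.908 FPKM in KO and 2.15, 1.60 and 0.927 FPKM in WT. The genotypes overlapped in both conditions. The authors did not test Gatm, so limma was read from a fit of all genes with a mean of at least 1 FPKM. That fit gave a log2 difference of 0.11 at rest (95% interval -0.21 to 0.44, limma adjusted p = 0.715) and -0.36 after running (95% interval -0.90 to 0.17, limma adjusted p = 0.448). Of these wider fits, 2.3% of 10501 genes at rest were called higher and 1.34% lower in KO, and 1.19% and 1.53% of 10360 genes after running.

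The order of the synthesis enzymes within a library differed by genotype. Gamt was above Gatm in 3 of 6 KO libraries, namely KO 2 at rest and KO 1 and 3 after running. It was above Gatm in 6 of 6 WT libraries. This order depends on the Gamt difference described above and on the Gatm level of each library, and was not tested.

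Slc6a8, which carries creatine into the fibre, was expressed well above the synthesis enzymes. At rest it stood at 35.3, 26.2 and 34.6 FPKM in KO and at 26.6, 25.9 and 30.4 FPKM in WT. The libraries taken after running had 55.9, 37.7 and 31.4 FPKM in KO and 32.1, 26.3 and 30.4 FPKM in WT. KO library 1 after running was the highest of the 12, and KO library 3 lay within the WT range.

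The means after running were 41.7 ± 12.7 FPKM in KO and 29.6 ± 2.99 FPKM in WT, and at rest 32.0 ± 5.05 FPKM in KO and 27.6 ± 2.43 FPKM in WT (SD, n = 3 each). The authors' deposited table gave Slc6a8 a q of 0.0354 after running and 0.425 at rest. limma gave a log2 difference of 0.44 after running (SE 0.20, limma adjusted p = 0.279) and 0.20 at rest (SE 0.14, limma adjusted p = 0.462). The transporter thus passed the authors' test after running, as did 4.66% of genes in that direction, and missed the limma threshold. Over both conditions the KO minus WT difference averaged 0.32 (95% interval 0.03 to 0.61, limma adjusted p = 0.121), in a fit of 12 libraries where 17.2% of 8854 genes were called. Without KO library 3 after running the averaged difference was 0.41 (limma adjusted p = 0.0456). The other fits with 1 library left out gave no call.

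Ckm, the muscle cytosolic kinase, was among the 11 most abundant transcripts of every group. At rest it stood at 5880, 7725 and 7328 FPKM in KO and at 4949, 5956 and 11485 FPKM in WT. After running it stood at 4961, 5361 and 9113 FPKM in KO and at 9414, 11311 and 7018 FPKM in WT. The genotypes overlapped in both conditions, and WT library 3 at rest lay above every KO library.

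Mean Ckm was 6977 ± 971 FPKM in KO and 7463 ± 3519 FPKM in WT at rest, with a log2 difference of -0.01 (95% interval -0.72 to 0.70, limma adjusted p = 0.993). After running it was 6479 ± 2290 FPKM in KO and 9248 ± 2151 FPKM in WT (SD, n = 3 each), with a log2 difference of -0.54 (95% interval -1.15 to 0.07, limma adjusted p = 0.302). The q in the authors' deposited table was 0.248 after running. The fast fibre list (8 of 8 tested, 0 called higher and 1 lower) summed to 62558 to 67743 FPKM in KO and to 78269 to 82525 FPKM in WT after running; its part in the Ckm values was not tested. At rest its sums overlapped, at 63304 to 76432 FPKM in KO and 67908 to 73636 FPKM in WT.

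Ckm varied widely between libraries of 1 group. Its pooled SD within groups was 0.45 on the log2(FPKM + 1) scale, larger than that of 94.3% of 10194 genes with a mean of at least 1 FPKM in each table. Among the 56 genes with a mean of at least 1000 FPKM in each table its SD was the 6th widest. Gamt had the widest SD of the 6 members, 0.50, larger than that of 95.9% of the 10194 genes. Ckb had an SD of 0.44, larger than that of 93.6% of them. The SD was 0.26 for Slc6a8 and 0.24 for Gatm. Ckmt2 had an SD of 0.14, larger than that of 24.3% of the 10194 genes. A long noncoding transcript, A930016O22Rik, overlaps Ckm in the RefSeq gene table and the sources used here do not give the strandedness of the libraries, so reads of the pair cannot be told apart. It ranged from 168 to 421 FPKM in KO and from 183 to 666 FPKM in WT over the 12 libraries.

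Ckmt2, the mitochondrial kinase of muscle, was the steadiest member. At rest it stood at 1323, 1234 and 1608 FPKM in KO and at 1517, 1474 and 1324 FPKM in WT. After running it stood at 1422, 1226 and 1482 FPKM in KO and at 1524, 1482 and 1339 FPKM in WT. The genotypes overlapped in both conditions. The log2 difference was -0.06 at rest (95% interval -0.37 to 0.25, limma adjusted p = 0.846) and -0.08 after running (95% interval -0.36 to 0.21, limma adjusted p = 0.775).

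Ckb, the brain-type kinase, was near 1 FPKM in the whole tissue. At rest it stood at 0.761, 0.302 and 1.49 FPKM in KO and at 1.26, 1.06 and 2.71 FPKM in WT. The libraries taken after running had 0.698, 0.708 and 1.85 FPKM in KO and 1.91, 2.01 and 0.873 FPKM in WT. The genotypes overlapped, and 1 KO library in each condition lay above the lowest WT library. The authors did not test Ckb. Among genes with a mean of at least 1 FPKM, limma gave a log2 difference of -0.53 at rest (95% interval -1.25 to 0.19, limma adjusted p = 0.398) and -0.33 after running (95% interval -0.96 to 0.30, limma adjusted p = 0.561). The part of the smooth muscle markers, whose sums are given beside Gamt, in the Ckb values was not tested. The ubiquitous mitochondrial kinase Ckmt1 was listed at 0 in all 12 libraries.

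**Figure D2:**
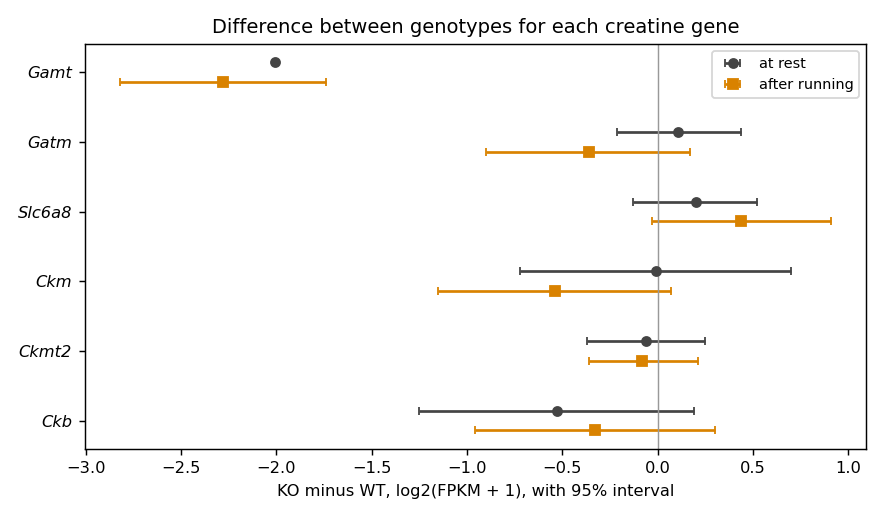
KO minus WT difference of each creatine gene in log2(FPKM + 1) (horizontal axis), at rest (circles) and after running (squares), from limma; lines are 95% intervals, and none is drawn for Gamt at rest, which was in view when the genes were chosen. Gamt lies at -2.01 and -2.28, and the intervals of the other 5 genes include 0.

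The kinase mixture was dominated by Ckm in every library. Ckm held 83.3 ± 2.55% of the summed FPKM of Ckm, Ckmt2 and Ckb in KO and 82.1 ± 6.77% in WT at rest (SD, n = 3 each). After running it held 81.7 ± 4.15% in KO and 86.1 ± 2.22% in WT. Within a library the ratio of Ckm to Ckmt2 was 3.49 to 6.26 in KO and 3.26 to 8.67 in WT. Ckmt2 made up nearly all of the rest, at 18.3 ± 4.15% in KO and 13.8 ± 2.22% in WT after running. Ckb held 0.0102 ± 0.00667% in KO and 0.0183 ± 0.00359% in WT at rest.

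The shares were compared by two-sided exact permutation of genotype labels within each table, for 9 comparisons in all. Over both tables the KO minus WT difference was -1.64 percentage points for Ckm (exact permutation p = 0.52, adjusted 0.78) and -0.00479 percentage points for Ckb (exact permutation p = 0.115, adjusted 0.45). The smallest p these 400 arrangements allow is 0.005. With 1 library left out, the unadjusted exact permutation p for Ckb was 0.045 without KO library 3 after running and 0.05 without WT library 3 after running. Within 1 table the exact permutation p cannot go below 0.1, and the lowest reached was 0.2.

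Whether the knockout difference itself differed between rest and running was tested as an interaction over the 12 libraries. limma called 0% of 8854 genes, 0 in number, while 433 had an unadjusted p under 0.05. On simulated data this fit recovered 60% of genes with a log2 change of 1, so interactions of that size can be missed. For Gamt the difference after running minus that at rest was -0.27 (SE 0.50), given without a test. For Ckm it was -0.53 (95% interval -1.50 to 0.44, limma adjusted p = 0.923), for Slc6a8 0.24 (95% interval -0.33 to 0.82, limma adjusted p = 0.93) and for Gatm -0.47 (95% interval -1.07 to 0.12, limma adjusted p = 0.925). Ckmt2 gave -0.02 (limma adjusted p = 0.986) and Ckb 0.20 (limma adjusted p = 0.962).

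Levels after running and at rest stood in separate tables that may have been normalized separately, so they are set side by side without a test. Over 10194 genes the median log2 ratio of group means plus 1, running over rest, was -0.02 in KO and -0.01 in WT. Gamt in WT stood at 9.28 FPKM after running and 5.49 FPKM at rest, a log2 ratio of 0.66 on that scale. Its 3 WT libraries after running all lay above its 3 at rest, as did those of 6.96% of the genes. In KO the Gamt libraries after running and at rest overlapped.

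Gatm in KO showed the other separation between conditions. Its 3 KO libraries after running all lay below its 3 at rest, as did those of 9.54% of the genes, with means of 0.978 FPKM after running and 1.93 FPKM at rest and a log2 ratio of -0.57. The Gatm libraries of WT overlapped, with means of 1.56 FPKM after running and 1.72 FPKM at rest. Slc6a8, Ckm, Ckmt2 and Ckb overlapped between conditions in each genotype, with log2 ratios between -0.11 and 0.37.

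Genes that feed the synthesis or work beside the kinases gave scattered calls. They come from 6 lists of related genes, and counts refer to genes called by limma and the authors in the same direction. Over all tested genes such calls were 2.74% higher and 1.53% lower at rest, and 1.39% higher and 2.04% lower after running. In the methyl donor list 0 genes were called higher and 1 of 8 tested lower at rest, and 0 of 8 were called after running. The median log2 difference was 0.02 at rest and 0.00 after running, against 0.01 and 0.00 over all tested genes. Ahcy, which clears the S-adenosylhomocysteine left by Gamt and other methyltransferases, fell at rest, to 4.39 ± 0.644 FPKM in KO against 7.05 ± 0.258 FPKM in WT (SD, n = 3 each, limma adjusted p = 0.0448). It did not pass in any of the 6 fits with 1 library left out, where the limma adjusted p was 0.061 to 0.171. Of the most abundant genes on the list after running, Adk averaged 60.9 FPKM in KO and 57.5 FPKM in WT, and Mat2a, which makes S-adenosylmethionine, 62.8 FPKM in KO and 57.9 FPKM in WT.

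In the arginine and glycine list 1 of 7 tested genes was called higher and 0 lower at rest, and 2 of 6 higher and 0 lower after running. The list's median log2 difference was -0.08 at rest and 0.17 after running. Oat, which interconverts ornithine and glutamate semialdehyde, rose at rest, to 243 ± 19.5 FPKM in KO against 124 ± 9.33 FPKM in WT (SD, n = 3 each, limma adjusted p = 0.00949). It also rose after running, to 232 ± 39.0 FPKM in KO against 145 ± 4.63 FPKM in WT (SD, n = 3 each, limma adjusted p = 0.0469). Without WT library 2 the limma adjusted p for Oat was 0.0609 at rest and 0.145 after running; after running it passed in 1 of 6 such fits. Shmt1, the cytosolic enzyme that interconverts serine and glycine, rose after running, to 10.6 ± 0.142 FPKM in KO against 4.92 ± 0.484 FPKM in WT (SD, n = 3 each, limma adjusted p = 0.0103), and passed all 6 such fits. At rest Shmt1 averaged 9.35 ± 1.61 FPKM in KO and 4.16 ± 1.81 FPKM in WT (limma adjusted p = 0.0607). Its q at rest in the authors' deposited table was 0.00119, so it passed their test and missed the limma threshold.

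The adenylate and nucleoside diphosphate kinases also move phosphate between nucleotides. At rest 0 of 8 tested genes were called, and after running 1 of 7 was called higher and 0 lower, with list medians of -0.05 and -0.14. Nme1, which equilibrates nucleoside triphosphates, rose in KO over WT in the muscle taken after running, 35.6 ± 4.36 FPKM against 15.4 ± 4.60 FPKM (SD, n = 3 each, limma adjusted p = 0.0233). That difference passed 1 of the 6 fits with 1 library left out and had its highest limma adjusted p, 0.0851, without WT library 2. At rest Nme1 averaged 34.7 ± 4.58 FPKM in KO and 25.5 ± 1.91 FPKM in WT (limma adjusted p = 0.107). Ak1, the main adenylate kinase of muscle, had a q of 0.016 at rest and 0.0463 after running in the authors' deposited table, whose test called 4.94% and 4.91% of genes lower. It averaged 398 ± 74.0 FPKM in KO and 570.3 ± 49.1 FPKM in WT at rest (limma adjusted p = 0.104), and 399.5 ± 46.9 FPKM in KO and 585 ± 67.4 FPKM in WT after running (limma adjusted p = 0.0732). Nme2, the other abundant gene of the list, averaged 367 FPKM in KO and 397 FPKM in WT at rest.

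The list of ATP and phosphate exchange at mitochondria had 2 of 6 tested genes called higher and 0 lower at rest, and 0 of 6 called after running. Its median log2 difference was 0.35 at rest and 0.13 after running. Vdac3, an outer membrane channel, rose at rest, to 757 ± 22.3 FPKM in KO against 491 ± 38.2 FPKM in WT (SD, n = 3 each, limma adjusted p = 0.0204), and passed 2 of 6 fits with 1 library left out (0.103 without WT library 2). Slc25a5, an ADP and ATP carrier, rose at rest, to 45.3 ± 2.96 FPKM in KO against 32.7 ± 0.482 FPKM in WT (SD, n = 3 each, limma adjusted p = 0.0377), and passed 0 of those fits (0.0696 to 0.15). Slc25a4, the muscle carrier of the same kind, averaged 4901 FPKM in KO and 4369 FPKM in WT after running, and Vdac1 783 FPKM in KO and 728 FPKM in WT.

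Of 4 tested M-band and pump genes, 1 was called higher and 0 lower at rest, and 0 after running. Their median log2 difference was 0.09 at rest and 0.05 after running. Myom3, an M-band protein, rose at rest, to 12.2 ± 5.43 FPKM in KO against 3.25 ± 1.41 FPKM in WT (SD, n = 3 each, limma adjusted p = 0.0385). The resting difference passed 1 of 6 fits with 1 library left out (0.126 without WT library 2). In the muscle taken after running Myom3 averaged 11.7 ± 6.09 FPKM in KO and 4.07 ± 1.78 FPKM in WT (limma adjusted p = 0.105). There it had a q of 0.00132 in the authors' deposited table, whose test called 4.66% of genes higher. After running, the calcium pump Atp2a1 averaged 4553 FPKM in KO and 4226 FPKM in WT, and Myom1 462 FPKM in KO and 514 FPKM in WT. Of the other SLC6 and creatine-related carriers 2 of 10 were tested and 0 called in each condition, with list medians of 0.24 at rest and 0.07 after running. The taurine transporter Slc6a6 averaged 19.7 FPKM in KO and 20.4 FPKM in WT at rest, and Slc16a9 3.84 FPKM in KO and 2.38 FPKM in WT. At rest Slc16a9 had a q of 0.0357 in the authors' deposited table and missed the limma threshold (limma adjusted p = 0.092).

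**Figure D3:**
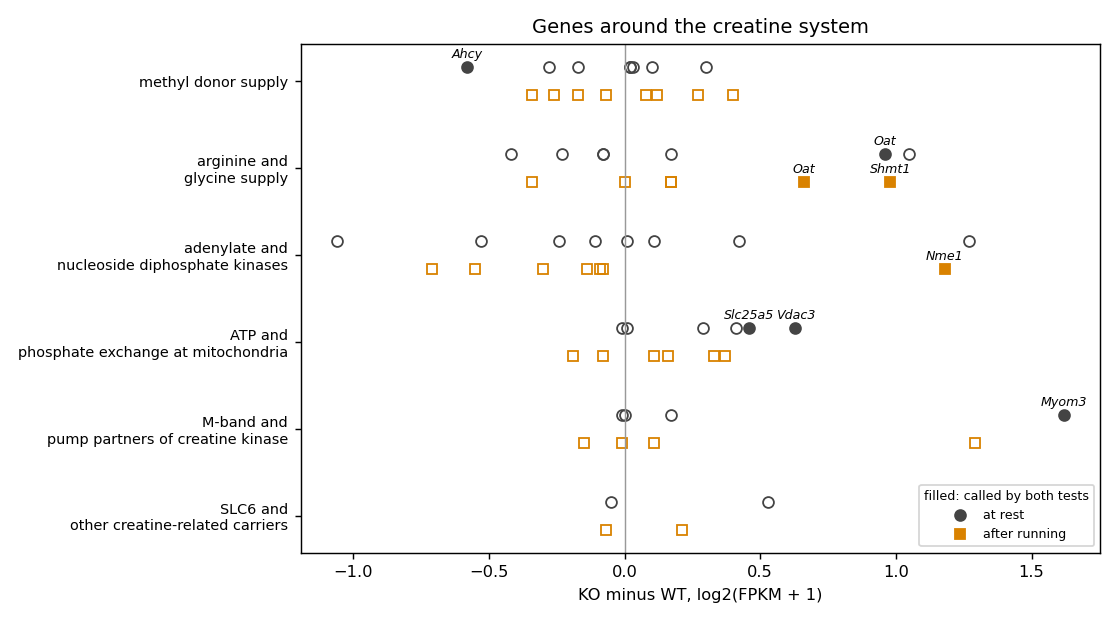
KO minus WT difference in log2(FPKM + 1) (horizontal axis) of each tested gene on 6 lists around the creatine system (rows), at rest (circles) and after running (squares). Filled symbols passed limma and the authors' test; Ahcy is the filled gene below 0, at -0.58, and the others lie between 0.46 and 1.62.

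Likeness to each member was measured as Pearson's r over the 12 libraries, after subtracting each table's mean of log2(FPKM + 1), among 9720 named genes. The value includes the genotype difference where a gene has one and is a description. Nearest to Gamt were Zfp367, a zinc finger gene (r = 0.973, Spearman's rho 0.818), Ctxn3 (0.965, rho 0.853) and the amino acid transporter Slc38a4 (0.960, rho 0.881). Zfp367 averaged 4.84 ± 1.72 FPKM in KO and 13.1 ± 1.51 FPKM in WT at rest, and 4.48 ± 0.273 FPKM in KO and 12.6 ± 1.35 FPKM in WT after running (SD, n = 3 each). Slc38a4 averaged 14.5 ± 1.43 FPKM in KO and 42.0 ± 3.36 FPKM in WT after running, and 11.4 ± 2.51 FPKM in KO and 28.2 ± 4.78 FPKM in WT at rest.

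Among the genes nearest to Slc6a8 were Tmem43 (r = 0.941, rho 0.895) and hexokinase 2, Hk2 (0.934, rho 0.909). Hk2 stood at 289, 158 and 135 FPKM in KO and at 108, 66.6 and 98.9 FPKM in WT after running, and KO library 1 was the highest of these 6, as for Slc6a8.

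Nearest to Ckm were the complex I subunit Ndufa13 (r = 0.978, rho 0.958), Rpph1, the RNA of ribonuclease P (0.967, rho 0.965), and Abhd17a (0.966, rho 0.958). Rpph1 stood at 307, 808 and 717 FPKM in KO and at 173, 488 and 3338 FPKM in WT at rest. After running it stood at 378, 332 and 1857 FPKM in KO and at 1329, 2503 and 517 FPKM in WT. WT library 3 at rest and WT library 2 after running held the highest values of both Ckm and Rpph1 in their condition. These libraries were also highest for Ndufa13, Abhd17a, A930016O22Rik, Ndufs7 and the actin gene Acta1 (14394 FPKM at rest and 16726 FPKM after running). The shared peaks are thus not particular to Rpph1, which was picked for its likeness to Ckm. The part of whatever moves this noncoding RNA in the Ckm values was not tested.

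The other members had less close neighbours. Those of Gatm were Esam (r = 0.854, rho 0.790), Cryab (0.848, rho 0.741) and Nsmf (0.840, rho 0.881). Those of Ckmt2 were St6gal1 (r = 0.837, rho 0.811), lactate dehydrogenase Ldhb (0.821, rho 0.706) and the ketone body enzyme Bdh1 (0.799, rho 0.720). Those of Ckb were Mrps18a (r = 0.913, rho 0.853), Slc9a3r2 (0.892, rho 0.895) and Fam53a (0.891, rho 0.916).

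**Figure D4:**
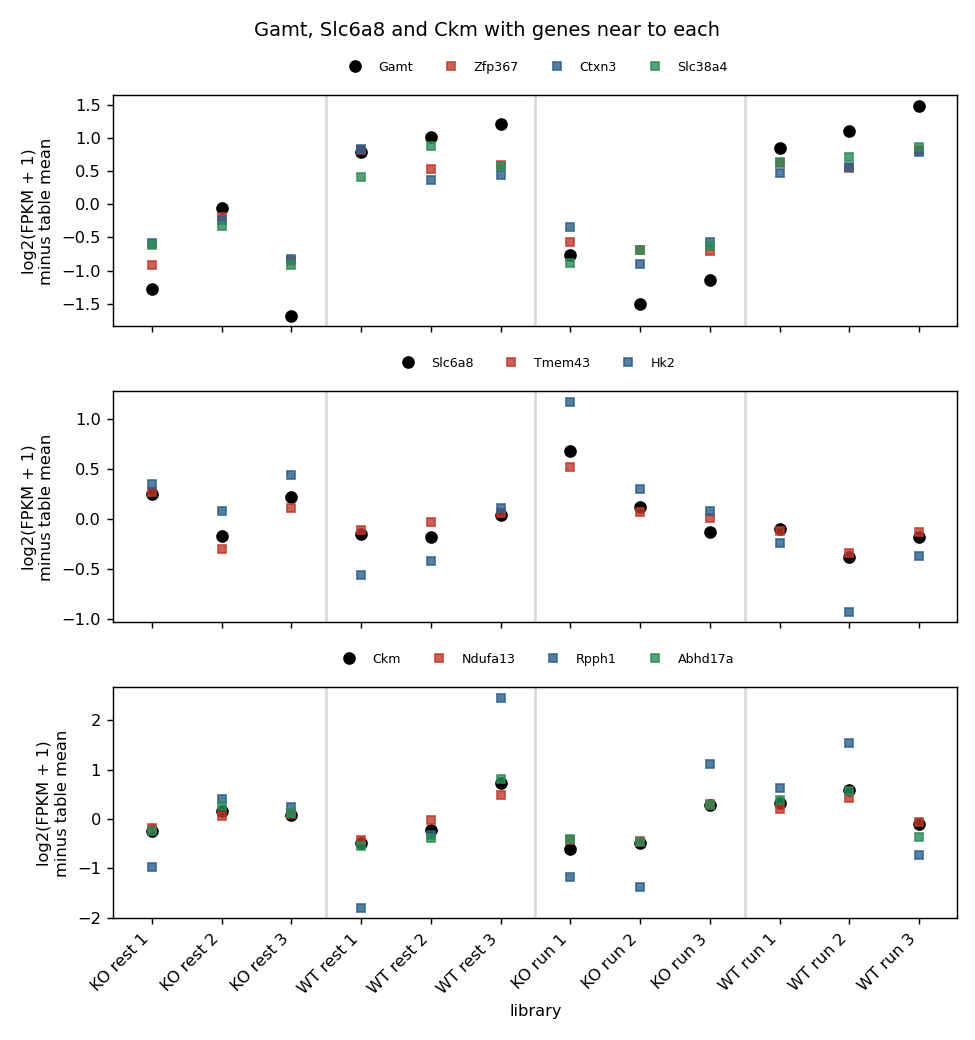
log2(FPKM + 1) minus the mean of its table (vertical axis) in the 12 libraries (horizontal axis) for Gamt, Slc6a8 and Ckm (black circles) and genes near to each (squares; 3 for Gamt, 2 for Slc6a8, 3 for Ckm). Gamt and its neighbours lie lower in the KO than in the WT libraries, Slc6a8 peaks in KO library 1 after running, and Ckm moves with Rpph1, which reaches 3338 FPKM in WT library 3 at rest.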

How the data were processed

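RNA-seq of mouse quadriceps was analysed in 12 libraries; the 4 GRO-seq libraries were not analysed here. The authors deposited FPKM per library and group means in 1 table for rest and 1 for running, which table held which being taken from the tables' names, and the p-value and q-value columns are the authors' own comparison of the genotypes. Per the submitters' processing notes, TopHat2, Bowtie, Cuffdiff and HOMER were used with mm9; versions, annotation, strandedness and normalization settings are not given in the sources used here. Depth is unknown.

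Columns were matched to samples by genotype, table and replicate number, with 0 left unmatched. Of the rows for running, 27 with date-like or repeated names were left out. The genes fitted were those whose deposited p was under 1 (9204 at rest, 9037 after running, 8854 in both); the deposited q-values equal a Benjamini-Hochberg correction over exactly these rows, to within 0.00036, which is why they are called tested. limma 3.58.1 in R 4.3.3 was fitted to log2(FPKM + 1) of these genes, using empirical Bayes variances that follow a trend with the mean; p-values are two-sided and Benjamini-Hochberg adjusted over every gene fitted, and a call is an adjusted p at or under 0.05. The averaged and interaction contrasts used 8854 genes and 12 libraries. "Rose" and "fell" compare KO with WT within a condition. They are written where limma and the authors' q at or under 0.05 had the same direction. The fits were tested on simulated data with 200 changed genes. Intervals are limma's 95% intervals.

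Members, lists and tests were chosen with earlier results of these data known. The text names all 6 members, Hdac3, the 3 nearest genes of each member with a mean of at least 1 FPKM in each table (1 is not reported here), called list genes (at most 4 per list and table, otherwise the 2 of highest mean), and neighbours or overlapping genes on the chromosome; Ak1 fell under the second case, and Des, Ckmt1, Rpph1 values and the neighbours of Gamt were added after their values were seen. Replicate numbers are shared between genotypes, but deviations of same-numbered libraries correlated between -0.291 and 0.139, so they were not treated as pairs.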

Additional observations from a re-analysis of the deposited data

How the results depend on the processing

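Gamt kept its direction between genotypes at rest, after running and on average in every alternative tried. Its resting difference was -3.61 with a pseudocount of 0.1 and -0.87 with 5, and the averaged one -3.31 and -1.04, since the pseudocount sets the scale of a low gene. Its interaction was 0.60 with a pseudocount of 0.1 and -0.61 to 0.20 with 1 library left out. Without a filter on low values the Gamt difference after running was -2.28 with a limma adjusted p of 0.0937, and the calls were 98 at rest, 53 after running and 8 for the interaction, against 434, 337 and 0; that fit takes in rows at 0 in all libraries. With the replicate block the calls were 52 at rest and 170 after running, and the block changed no call of a member. With 1 spread over 12 libraries they were 672 and 586. Leaving out 1 library gave 20 to 292 calls at rest, 70 to 103 after running and 0 to 1 for the interaction. It gave -0.26 to 0.35 for Ckm at rest, -0.17 to 0.02 for Ckmt2 at rest, -0.13 to 0.01 for Ckmt2 after running, and 0.21 to 0.41 for Slc6a8 on average. The interaction ranged from -0.10 to 0.09 for Ckmt2 (0.01 after scaling each library to a median log2 ratio of 0) and from -0.06 to 0.44 for Ckb. From the summed FPKM of the groups, the resting share difference was -0.433 percentage points for Ckm and 0.441 for Ckmt2. With 1 library left out it was -1.62 to 4.94 for Ckm and -4.93 to 1.63 for Ckmt2 at rest; over both tables -3.03 to 0.248 for Ckm, -0.243 to 3.04 for Ckmt2 and -0.00641 to -0.00308 for Ckb. The cause of these shifts was not tested. No call of Slc6a8, Ckm, Ckmt2, Gatm or Ckb arose within a table under any of these alternatives. The number of libraries, 3 in a group, and the unknown depth limit what can be seen of Gatm and Ckb near 1 FPKM.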
